A study of Mus musculus with 577 samples.

Results

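The naive pluripotency factors are transcription factors that hold mouse embryonic stem cells (mESCs) in the state of the preimplantation epiblast. Their members here are Nanog, Pou5f1, Sox2, Klf2, Klf4, Esrrb, Zfp42, Tfcp2l1, Tbx3 and Prdm14, which were chosen by name and not by a measured value. They are 10 of the 22060 protein-coding genes counted. The study recovered RNA from single cells cut out of tissue sections by laser capture microdissection (LCM) with DRaqL, a lysis step whose detergent is quenched before cDNA synthesis. It holds 577 samples, of which 562 are 3′ libraries in 34 groups and 15 are libraries made with Y-shaped adapters, which read cDNA along its length.

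As background, POU5F1 (also called OCT4) and SOX2 bind DNA as a pair and, together with NANOG, make up the core of the pluripotency network. KLF4 and TFCP2L1 act downstream of LIF and STAT3, KLF2 protein is stabilized when MEK is inhibited, and ESRRB is a nuclear receptor that is released from repression by TCF7L1 when GSK3 is inhibited. TBX3 is a T-box factor that responds to PI3K signaling, and PRDM14 represses FGF signaling and de novo DNA methylation. Zfp42 (also called Rex1) is a widely used marker gene of the naive state. Of these genes, Pou5f1 is also known to be expressed in growing oocytes, and Nr5a2, another gene of the network, in granulosa cells.

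The mESCs were grown in 2iLIF, a medium with LIF at 1 U/µL, 0.4 µM of PD0325901 to inhibit MEK and 3 µM of CHIR99021 to inhibit GSK3, and all came from the same culture batch. Freshly dissociated mESCs (45 cells) were compared with LCM mESCs (36 cells), which were cut from sections of a frozen cell block fixed with 80% ethanol, and both were amplified by SC3-seq, a 3′-end protocol. Oocytes and granulosa cells came from sections of snap-frozen ovaries of 8-week-old female mice. DRaqL-SC3-seq of alcohol-fixed sections gave 14 oocytes of primary follicles, 30 oocytes of secondary-to-early antral follicles (called secondary-antral below), and 31 granulosa cells neighboring an oocyte with 26 non-neighboring granulosa cells. SMART-Seq v4 without and with DRaqL, Smart-seq2 with DRaqL, LCM-seq, and DRaqL with protease after 24 h in formalin gave further oocytes or granulosa cells. One mouse, whose age is not in the labels, gave freshly dissociated grown oocytes (14 cells) and granulosa cells together with LCM cells of its sections. The study's methods describe it as 8 weeks old and in proestrus. Its dissociated cells were isolated with dibutyryl-cAMP, a cAMP analog, and amplified by Smart-seq2. Its LCM cells came from a frozen ovary and were amplified by Smart-seq2 with DRaqL. The set was completed by 7 bulk granulosa samples and by pools of 10 granulosa cells, 7 from either position. The labels name neither the strain nor the animal behind an ovarian cell, so each group of single cells counted as 1 sample and its SD is a spread over cells.

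Libraries held between 204699 and 3440997 reads in mESCs, 873206 and 2338750 in oocytes by DRaqL-SC3-seq, 162033 and 1429292 in granulosa cells by DRaqL-SC3-seq, and 3811945 and 8259281 in pools. Levels are given as log2(RPM + 1), where RPM is the usual unit of reads scaled to a library's sum over protein-coding genes, and a gene was called detected above 0 reads. Summed over 14 oocyte genes, the median was 31847 RPM in oocytes and 4.83 RPM in mESCs. Summed over 10 granulosa genes, the median was 6095 RPM in neighboring and 6985 RPM in non-neighboring granulosa cells. It was 210 RPM in oocytes and 96.3 RPM (6.47 to 363) in mESCs. In the mESCs 5 of the 10 granulosa genes were detected, and Amh, Cyp19a1, Foxl2, Hsd17b1 and Inhba were at 0. Fresh mESCs 25 and 33 correlated at r = 0.98 (next highest pair 0.89). Their counts differed beyond sampling noise, but less than in 44 other pairs (chi-square per degree of freedom 7.36, against 19.3 to 88.3). Whether they came from separate cells cannot be read from this, and both were kept. The 10 mESC libraries with Y-shaped adapters each matched best a 3′ library of the other label (r = 0.61 to 0.79, next r at most 0.15, over 2053 genes), so that they went against their labels, and both labels are given as 1 set of mESCs.

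In mESCs the core factors Sox2 and Nanog were detected in all 81 cells with little spread, whereas Pou5f1 was counted at a low level. Sox2 ranged from 7.42 over a median of 8.35 to 9.50 in fresh cells, and from 6.07 over 8.35 to 9.04 in LCM cells. Nanog ranged from 6.19 over 7.41 to 8.84 in fresh cells, and from 5.97 over 7.50 to 8.71 in LCM cells. Fresh and LCM cells overlapped over nearly their whole range for Nanog. For Sox2 they overlapped from 7.42 to 9.04, and LCM cells down to 6.07 lay below every fresh cell. Pou5f1 ranged from 0 over 2.39 to 5.89 in fresh cells, and from 0 over 1.57 to 6.12 in LCM cells.

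The low count of Pou5f1 stands beside features of its locus that bear on counting. It was detected in 38 of 45 fresh cells (84.4%, exact binomial 95% interval 70.5 to 93.5%) and 27 of 36 LCM cells (75%, 57.8 to 87.9%), at median depths of 2068207 and 1951462 reads, against 5 of 57 granulosa cells by DRaqL-SC3-seq. Thinned to 204699 reads a library, it was detected in 25 fresh and 18 LCM cells, at a mean near the level of 1 read (2.13 and 1.82, against 2.56 for 1 read), so that no difference can be read from it. Summed over cells, it held 8.29 RPM (exact Poisson interval 7.70 to 8.91) in fresh and 9.16 RPM (8.46 to 9.89) in LCM cells, an order opposite to that of the mean log2 levels. Intervals cover counting error only. Pou5f1 (chr17:35506018-35510772, GRCm38, plus strand) is overlapped by the antisense gene Gm19553 and followed within 10 kb by Tcf19 and Cchcr1, and 13 of the 951 50-base words in the last 1000 bases of its transcript also occur in the pseudogene Gm5712. Whether the counting used strand is not given in the sources used here, and the part of these neighbors in the level was not tested.

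The study measured Nanog and Pou5f1 also by real-time PCR, and its primers lie in the stretch near the 3′ end that these protocols read. Both Nanog primers lie in the last of its 4 exons, outside the coding part, on chr6:122714479-122714501 and chr6:122714569-122714590 (GRCm38, gene on the plus strand). The amplicon ends 43 bases before the 3′ end of the transcript.
Nanog forward: ctttcacctattaaggtgcttgc
Nanog reverse: tggcatcggttcatcatggtac

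Both Pou5f1 primers lie in the last of its 5 exons, outside the coding part, on chr17:35510571-35510591 and chr17:35510694-35510715 (GRCm38, plus strand). The amplicon ends 57 bases before the 3′ end.
Pou5f1 forward: gatgctgtgagccaaggcaag
Pou5f1 reverse: ggctcctgatcaacagcatcac

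Among the factors placed downstream of the culture's signals, Klf2 was higher and Klf4 lower in LCM than in fresh mESCs. Klf2 ranged from 2.56 over 7.09 to 8.41 in fresh cells and from 5.60 over 7.90 to 9.43 in LCM cells. Its mean was 6.92 ± 1.10 (SD, n = 45) in fresh and 7.83 ± 0.83 (n = 36) in LCM cells, a difference of 0.91 on the log2 scale. That was a larger difference than in any other of the 613 genes whose mean lay within 0.5 of its own, among which the median was −0.04. Klf4 ranged from 2.02 over 6.68 to 8.84 in fresh cells and from 1.23 over 5.69 to 7.95 in LCM cells. Its means of 6.45 ± 1.25 and 5.45 ± 1.51 differed by −0.99, at percentile 4.42 of 1153 genes of like mean. Both differences were smaller than the SD of the fresh cells, and the ranges overlapped widely. Under the other settings tried the difference of Klf2 stayed between 0.78 and 1.20 and that of Klf4 between −1.14 and −0.72.

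Tfcp2l1 was 7.76 ± 0.72 in fresh and 8.07 ± 0.69 in LCM cells, a difference of 0.31 that is under the SD of either group. Esrrb (8.46 ± 0.52 and 8.53 ± 0.62) and the marker gene Zfp42 (9.27 ± 0.50 and 9.15 ± 0.49) were detected in all 81 cells and differed by 0.07 and −0.12. Of Zfp42, 66 of 951 50-base words at the transcript's end also occur in the pseudogene Zfp42-ps1, so that reads of both may be mixed.

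Tbx3 and Prdm14 were at 0 in some mESCs and high in others. Tbx3 ranged from 0 over 3.59 to 7.12 in fresh cells and from 0 over 3.08 to 5.86 in LCM cells, and was at 0 in 2 and 1 cells. Prdm14 ranged from 0 over 5.06 to 8.87 in fresh cells and from 0 over 3.91 to 7.45 in LCM cells, and was at 0 in 1 and 3 cells. The means of Prdm14 were 4.64 ± 2.31 and 3.74 ± 2.52, a difference of −0.91 at percentile 16.5 of 1589 genes of like mean. Single mESCs thus ran from no read of Prdm14 to levels near those of the other factors' means.

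**Figure D1:**
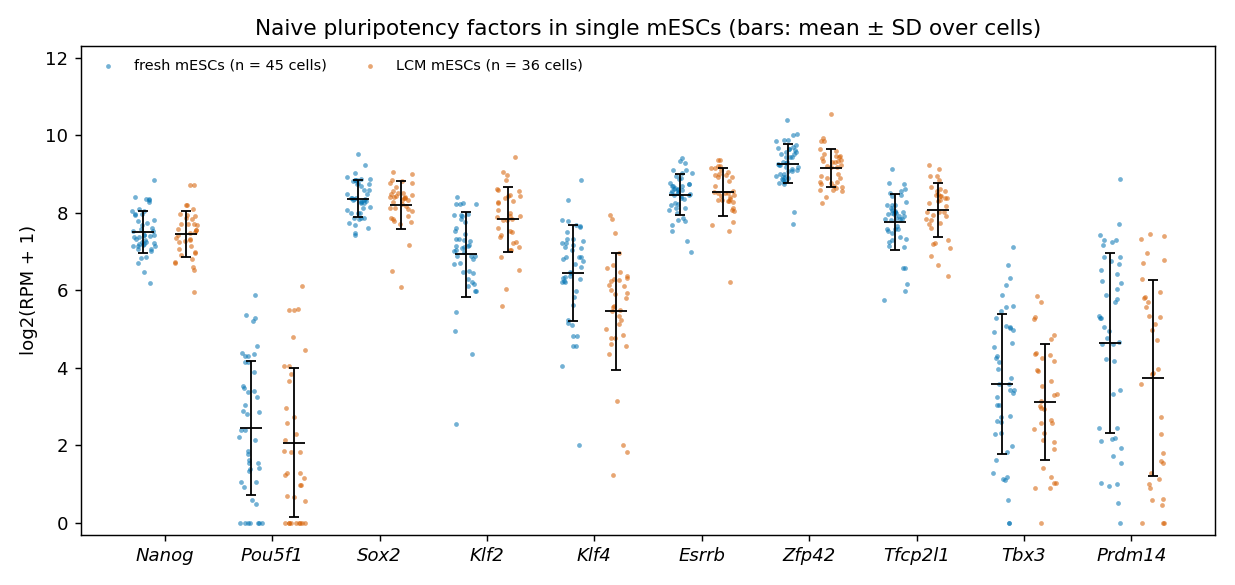
The vertical axis gives log2(RPM + 1) of each of the 10 factors (horizontal axis) in 45 fresh and 36 LCM mESCs, with 1 point per cell and bars for the mean ± SD over cells. Both colors overlap for every factor, Klf2 sits higher (7.83 against 6.92) and Klf4 lower (5.45 against 6.45) in LCM cells, and Prdm14 spreads from 0 to 8.87.

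None of the 10 factors differed by more than 2-fold between LCM and fresh mESCs, where 0.442% of the 18992 genes detected in either were higher and 5.12% lower past 2-fold. The factors Klf2, Esrrb and Tfcp2l1 were above 0 and the other 7 below, with a median difference of −0.14 (−0.05 over all genes). Scaling by the upper quartile turned the sign of that median to 0.15, and that of Nanog, Sox2 and Zfp42 with it. Of 24 other genes of the naive network, 0 were higher and 3 lower past 2-fold in LCM cells. They were Dppa2 (1.46 against 4.01), the Krüppel-like factor gene Klf5 (3.49 against 5.34) and Fbxo15 (5.34 against 6.76). Of 18 primed and lineage genes, 16 were detected and 2 were lower, namely the de novo DNA methyltransferase gene Dnmt3b (2.89 against 4.96) and the T-box gene Eomes (0.39 against 1.41). The median number of genes detected was also lower in LCM cells, 9846 against 10644, and its part in these differences was not tested.

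A fresh mESC held reads of 9.78 ± 0.47 of the 10 factors and an LCM mESC of 9.64 ± 0.54, and 36 of 45 and 24 of 36 cells held all 10. No cell held fewer than 8. In comparison with genes whose mean lay within 0.5 on the log2 scale, the spread of Nanog over cells was small, with its SD at percentile 5.70 of 596 genes in fresh cells and 6.57 of 563 in LCM cells. The SD of Sox2 lay at percentiles 8.15 and 20.6. That of Prdm14 lay at percentiles 99.7 and 91.7, and those of Klf4 (77.5 and 35.7) and Klf2 (74.7 and 50.1) in between. The SD of Tbx3 lay at percentiles 40.7 and 10.6, so that its spread was not wide for its level.

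The correlations among the 10 factors over single cells were mostly weak. Of their 45 pairs, the Pearson r over the 45 fresh cells had a median of 0.03 and ran from −0.21 to 0.40, and 4 pairs were above 0.3. Over the 36 LCM cells the median was 0.13, the range −0.22 to 0.47, and 5 pairs were above 0.3. Above 0 were 25 of the 45 pairs in fresh and 36 in LCM cells. Pairs of other genes at a mean of at least 6 had medians of 0.01 in both cell types, and 7.29% and 7.36% of them were above 0.3. Pou5f1, Tbx3 and Prdm14 had means under 6, as did Klf4 in LCM cells, so that for their pairs this comparison is not at a like level. Values of r across cells share the depth of each library and are given as a description.

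Nanog with Klf4 was the 1 pair above 0.3 in both cell types (r = 0.31 in fresh and 0.47 in LCM cells). The other fresh pairs above 0.3 were Klf2 with Esrrb (0.40, 0.14 in LCM cells), Sox2 with Klf2 (0.33, −0.22) and Nanog with Tfcp2l1 (0.32, 0.02). The other LCM pairs were Klf2 with Tfcp2l1 (0.36, 0.19 in fresh cells), Nanog with Zfp42 (0.36, −0.10), Zfp42 with Tfcp2l1 (0.32, −0.02) and Nanog with Sox2 (0.31, 0.24). The sign of r was the same in both cell types for 22 of the 45 pairs, and over the pairs the values of the 2 cell types correlated at −0.14. In LCM cells Prdm14 moved with the number of genes detected (r = 0.56), while the same r was −0.07 in fresh cells. In fresh cells that number moved with Klf4 (0.40) and Nanog (0.38), against 0.20 and −0.13 in LCM cells.

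**Figure D2:**
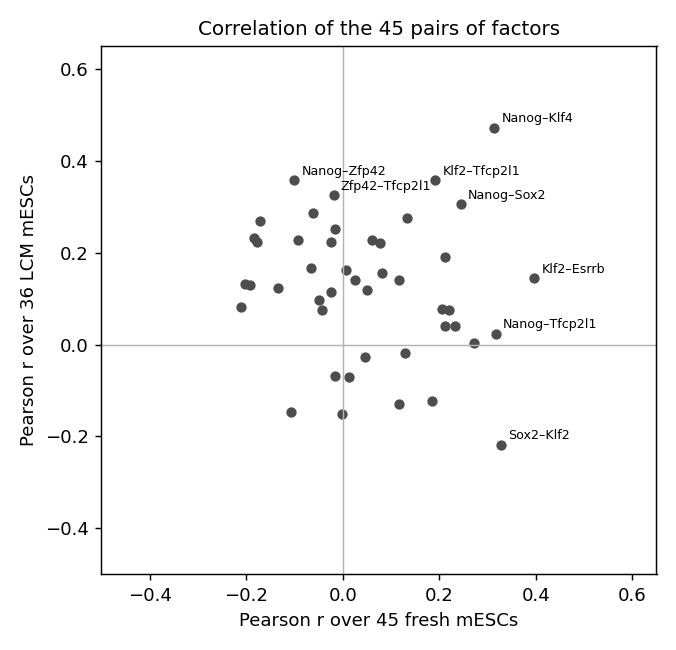
Each of the 45 points is a pair of factors, placed by its Pearson r of log2(RPM + 1) over 45 fresh mESCs (horizontal axis) and over 36 LCM mESCs (vertical axis). Nanog with Klf4 stands apart at 0.31 and 0.47, Sox2 with Klf2 lies at 0.33 and −0.22, and the cloud shows no common slope.

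The gene whose level over fresh mESCs was most like that of each factor was searched among 2184 or 2185 genes. For Klf2 it was Fbl, the nucleolar fibrillarin gene, with r = 0.68, and for Klf4 it was Cfl1, the cofilin gene, with 0.63. The other factors had their highest r with Coro1b (Tfcp2l1, 0.57), Mtcl1 (Tbx3, 0.56), Enoph1 (Esrrb, 0.55), Pabpc4 (Pou5f1, 0.51), Ccdc58 (Sox2, 0.51), Tmsb4x (Nanog, 0.49), Kcmf1 (Prdm14, 0.48) and Eif4a3 (Zfp42, 0.46). Over LCM cells the same pairs ranged from −0.13 (Esrrb) to 0.30 (Prdm14). For none of the 10 factors was the nearest gene another factor, and being the highest of many, these values of r are a description.

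The Y-shaped adapter libraries of 10 mESCs held sums of 6200968 to 16296631 over all exon rows, where overlapping rows can count a read repeatedly. All 10 factors were detected in all 10 cells, and 0 of them had a mean over exons above 2-fold of its 3′ level, while Nanog, Sox2, Zfp42, Esrrb and Tfcp2l1 differed from it by −1.50 to −1.16 on the log2 scale. For these differences and levels, exon rows of several transcripts that cover the same bases were counted once in a factor's own reads. The library sum used for scaling held every exon row, which lowers these levels, and its part in the differences was not tested. With every row of the factor counted, the difference of Esrrb was −0.47 in place of −1.47, and that of Tbx3 0.20 in place of −0.58. Zfp42 ranged from 172 over 224 to 285 CPM (the same scaling over exon reads), Esrrb from 91.2 to 267 CPM, and Pou5f1 from 0.161 over 2.52 to 9.05 CPM. Pou5f1 was thus low in the count over exons too, which is no separate measure. The study made these libraries from amplified single-cell cDNA, and each matched a single 3′ library. Of the 338 reads of Pou5f1, 254 lay on its last exon. Against the best-matching 3′ libraries, the levels of a factor over the 10 cells, with every exon row counted, correlated at r = 0.66 (Zfp42) to 0.95 (Tbx3), with 0.91 for Klf2 and 0.94 for Klf4 and Nanog.

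In oocytes 9 of the 10 factors were more than 2-fold lower than in LCM mESCs, and Pou5f1 was higher. Among all 20899 genes detected, 35.1% were higher and 10.3% lower past 2-fold in oocytes. The median difference of the factors was −5.04, against 0.33 over all genes. Pou5f1 was 4.93 ± 0.72 (n = 44 oocytes) against 2.07 ± 1.93 in LCM mESCs, and its range of 3.29 to 7.23 in oocytes overlapped the 0 to 6.12 of the mESCs. Sox2 (0.64 ± 1.15 against 8.20 ± 0.61), Nanog (0.43 ± 0.54 against 7.45 ± 0.60) and Klf2 (1.13 ± 1.33 against 7.83 ± 0.83) were lowest relative to mESCs, by 7.56, 7.02 and 6.70. The 2 kinds of cell come from separate tables of counts and different material, so that cell type and source cannot be told apart.

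Of the 24 other naive genes, 5 were higher and 15 lower past 2-fold in oocytes. Higher were the maternal-effect gene Dppa3 (10.35 against 3.30), Gbx2 (5.34 against 1.52) and the RNA-binding protein gene Lin28a (3.33 against 1.07). Lower were Fgf4 (0.14 against 7.76), Gdf3 (0.12 against 7.07) and the NODAL co-receptor gene Tdgf1 (0.06 against 6.73). Of 18 primed and lineage genes, 5 were higher, with Gata4 (4.90 against 0.05), the de novo DNA methyltransferase gene Dnmt3a (7.14 against 2.53) and Lef1 (3.05 against 0.61) foremost, and T and Otx2 were lower.

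Esrrb differed between oocytes of primary and of secondary-antral follicles. By DRaqL-SC3-seq it ranged from 0 over 1.62 to 2.95 in 14 primary oocytes and from 0 over 6.69 to 7.53 in 30 secondary-antral oocytes. Of the latter, 24 lay above every primary oocyte, and the other 6 overlapped them. Its mean was 1.38 ± 0.89 and 5.37 ± 2.38. Within the secondary-antral oocytes its SD was at percentile 99.8 of 2180 genes of like mean, while those of Pou5f1 (2.39) and Zfp42 (0.348) were among the smallest. Over these 30 oocytes the level of Esrrb had r = 0.14 with log2 reads and 0.24 with the number of genes detected.

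The difference between stages was also found for Esrrb with the other protocols. By SMART-Seq v4 it ranged from 0 over 1.04 to 2.08 in 7 primary oocytes and from 6.50 over 7.52 to 8.30 in 11 secondary-antral oocytes, all of which lay above the primary ones. By DRaqL-SMART-Seq v4 the ranges were 0 over 0.60 to 4.35 in 6 and 4.34 over 7.33 to 7.89 in 9 oocytes, of which 8 lay above every primary oocyte. After formalin they were 0 over 2.95 to 3.39 in 5 and 3.99 over 6.36 to 7.18 in 7 oocytes, all above the primary ones. Among all genes, 2.93%, 5.03% and 2.77% had every secondary-antral oocyte above every primary one in these 3 sets, in the same order. The labels name no animal, so the difference was not tested across animals. The study states that its amplification methods, including DRaqL with protease after formalin, used sections of a shared ovary. The values of these protocols are therefore no repeat across animals.

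**Figure D3:**
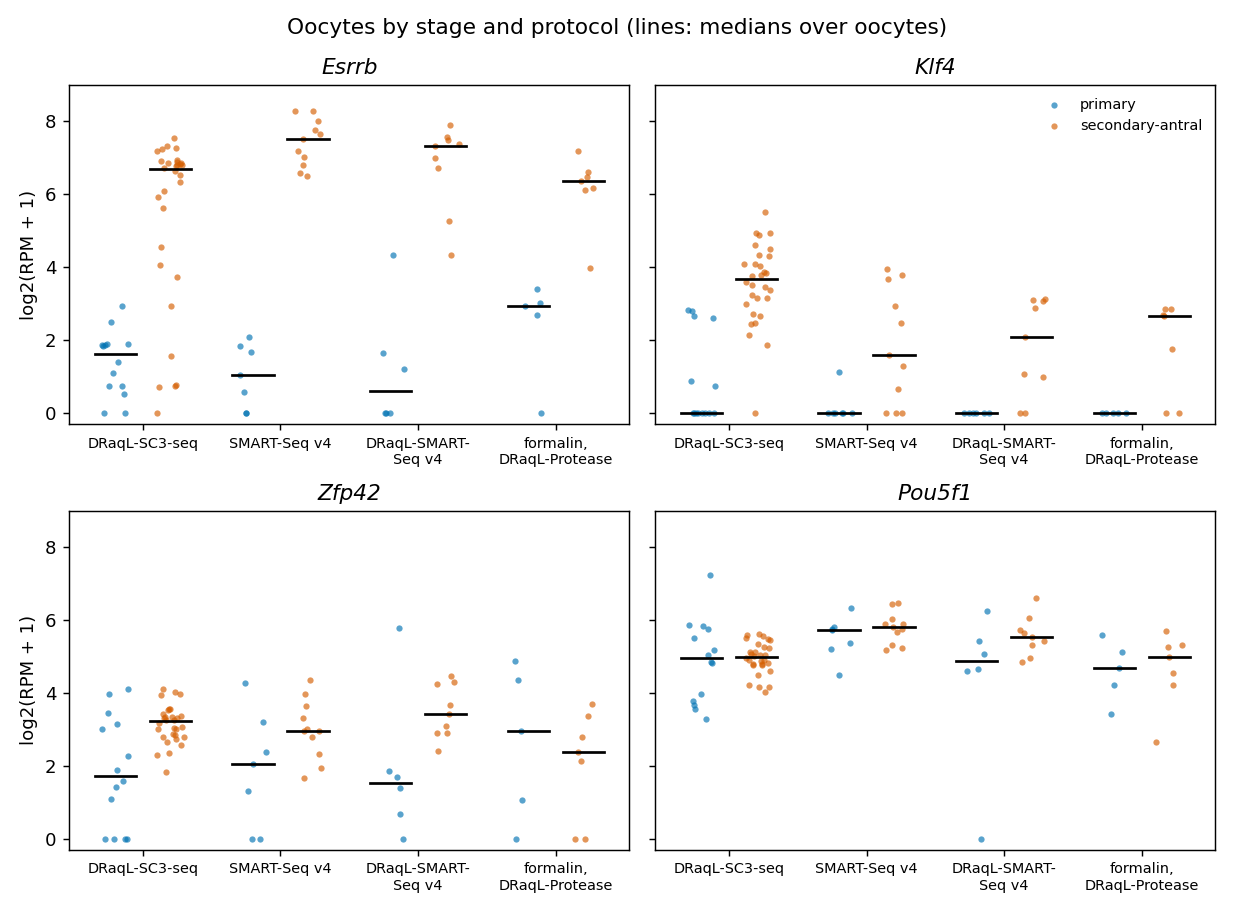
Each panel shows log2(RPM + 1) of 1 factor in single oocytes (points) of primary and secondary-antral follicles for 4 protocols along the horizontal axis, with lines at the medians. The median of Esrrb is higher in secondary-antral oocytes in all 4 protocols (6.69 against 1.62 by DRaqL-SC3-seq), where 6 of 30 by DRaqL-SC3-seq and 1 of 9 by DRaqL-SMART-Seq v4 overlap the primary ones, Klf4 is mostly at 0 in primary oocytes, and Pou5f1 has medians of 4.95 and 4.98 by DRaqL-SC3-seq.

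In grown oocytes the mean of Esrrb lay below that of mESCs, with overlapping ranges. Freshly dissociated grown oocytes held 6.89 ± 0.34 (6.35 to 7.49, n = 14). Oocytes cut from sections of the same mouse held 6.08 ± 2.53 (n = 8), where 7 cells ranged from 5.74 to 7.80 and 1 was at 0. Serial sections held 7.65 ± 0.31 (16 sections), against 8.46 ± 0.52 in fresh and 8.53 ± 0.62 in LCM mESCs. Of the groups ranked here, LCM and fresh mESCs had the highest means and do not differ beyond their spread. Serial sections came next, then SMART-Seq v4 secondary-antral oocytes (7.42 ± 0.65) and fresh grown oocytes. Either neighbor of the SMART-Seq v4 oocytes lies within their spread. The serial sections and fresh grown oocytes differed by more than either SD. Other secondary-antral groups were not ranked. Protocol, material or both differ between the ranked groups, so that they cannot be told apart from cell type or stage in this order.

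Klf4 and Zfp42 were, with Esrrb, the 3 factors more than 2-fold higher in secondary-antral than in primary oocytes by DRaqL-SC3-seq, and 0 factors were lower. The share among all 20696 genes was 21.2% higher and 9.88% lower, so that the count alone does not set the factors apart. Klf4 ranged from 0 over 0 to 2.82 in primary and from 0 over 3.68 to 5.50 in secondary-antral oocytes, 23 of which lay above every primary oocyte. It was detected in 6 of 14 and 29 of 30 oocytes. Its mean was also higher in secondary-antral oocytes by SMART-Seq v4 (by 1.69), DRaqL-SMART-Seq v4 (by 1.81) and after formalin (by 1.83). Zfp42 ranged from 0 over 1.73 to 4.12 and from 1.84 over 3.22 to 4.11, so that its groups overlapped, and after formalin the difference of its means was −0.59.

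Pou5f1 differed little between the stages by DRaqL-SC3-seq. It ranged from 3.29 over 4.95 to 7.23 in primary and from 4.03 over 4.98 to 5.61 in secondary-antral oocytes, with means of 4.89 ± 1.12 and 4.96 ± 0.44. Its levels by SMART-Seq v4 were 5.53 ± 0.58 and 5.78 ± 0.44. The freshly dissociated grown oocytes held less, 3.23 ± 1.31, and the serial sections 3.22 ± 0.73.

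Sox2 was at 0 in all 14 primary oocytes by DRaqL-SC3-seq and was detected in 12 of 30 secondary-antral oocytes, up to 3.94. It was also at 0 in the 7, 6 and 5 primary oocytes by SMART-Seq v4, by DRaqL-SMART-Seq v4 and after formalin, and was detected in 4 of 11, 5 of 9 and 0 of 7 secondary-antral oocytes. Nanog was near 0 by DRaqL-SC3-seq (0.65 ± 0.53 and 0.32 ± 0.52, at most 3 reads a cell) but not by SMART-Seq v4 (3.45 ± 0.85 and 4.86 ± 2.1). Granulosa cells likewise held more Nanog reads in some of the other protocols, with 1.93 ± 1.75 in neighboring cells by DRaqL-SMART-Seq v4 against 0.37 ± 1.33 by DRaqL-SC3-seq. In the last 1000 bases of the Nanog transcript, 41 of 951 50-base words recur in 23 other genes, so that its reads may be shared, and the part of this in the level was not tested.

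The remaining factors were low in oocytes and variable. Klf2 had medians of 0 and 0.94, and Tfcp2l1 of 2.29 and 2.31, with a single primary oocyte reaching 6.57. Tbx3 had medians of 0 and 0.94, and Prdm14 of 0.73 and 0.69. The secondary-antral minus primary difference of Tfcp2l1 was −0.38 by DRaqL-SC3-seq, 0.20 by SMART-Seq v4, −2.11 by DRaqL-SMART-Seq v4 and −1.18 after formalin. Counted past 2-fold, 4 factors were higher and 0 lower by SMART-Seq v4, where 24.8% of all genes detected were higher and 11.9% lower. By DRaqL-SMART-Seq v4 6 were higher and 1 lower, beside 26.3% and 16.6% of all genes. After formalin 2 were higher and 2 lower of 9 detected, beside 20.9% and 19.0%.

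Among the other naive genes, 9 of 23 detected were higher and 2 lower in secondary-antral oocytes. They included Gbx2 (6.59 against 2.66), the zinc-finger gene Sall4 (8.56 against 4.65) and Dppa2 (4.31 against 0.91). Stat3, which encodes the transducer of LIF, was lower (6.72 against 8.86), as was Nr0b1 (0.24 against 1.50). Of the 18 primed genes 1, Lef1, was higher (3.52 against 2.05). The median difference was 0.56 for the factors, 0.59 for the other naive genes, 0.03 for the primed genes and 0.04 over all genes.

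Paired serial sections of 8 oocytes show how far a level repeats within a single oocyte. For Esrrb the SD within an oocyte was 0.27 and that between oocytes 0.25, with all 16 sections between 7 and 8.14. The SD within is that of a single section. The SD between is that of the means over an oocyte's paired sections and still holds spread within oocytes, so that both are not on a like scale. Klf2 differed less within oocytes (0.25) than between them (0.92), as did Sox2 (0.54 and 1.29), which was detected in both sections of 3 oocytes and in 1 section of 1 oocyte. Pou5f1 differed more within (0.87) than between oocytes (0.37), and Tfcp2l1 likewise (1.41 and 0.74). These libraries held between 4232302 and 17506401 reads.

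In the exon counts, oocytes held reads on Esrrb exons that had none in mESCs. Esrrb (chr12:86361117-86521628, GRCm38, plus strand) has a short annotated transcript of 4 exons and 694 bases, Esrrb-205, which lies inside the gene at chr12:86504409-86509967 and has no annotated coding part. It starts 143292 bases after the start of the coding transcript Esrrb-204 and 82765 bases after that of Esrrb-202 and Esrrb-203, while Esrrb-206 starts nearer to it. Its exon 1 and exon 4 belong to it alone, whereas its exons 2 and 3 are shared with coding transcripts. Exon 4 of Esrrb-205 held 358 reads in 5 of 5 oocytes and 0 reads in 10 mESCs. Exon 1 held 50 reads in 4 of 5 oocytes and 0 in the mESCs, and the shared exon 3 held 186 and 0 reads. The last exon of the gene (chr12:86518821-86521625), which holds the 3′ end of coding transcripts, held 886 reads in oocytes and 13222 in mESCs.

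The sequences are shown because they tell Esrrb-205 and the coding transcripts apart. Exon 1 of Esrrb-205 lies at chr12:86504409-86504523 (GRCm38, plus strand). The join from exon 3 (lower case) to exon 4 of Esrrb-205 (capitals, chr12:86509662-86509967) is set beside the join from the same exon (lower case) to the next coding exon of Esrrb-201 (capitals), with 60 bases on either side.
Esrrb-205 exon 1: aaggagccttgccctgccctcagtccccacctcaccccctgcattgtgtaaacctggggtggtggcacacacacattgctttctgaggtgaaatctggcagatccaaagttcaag
Esrrb-205 exon 3 to exon 4: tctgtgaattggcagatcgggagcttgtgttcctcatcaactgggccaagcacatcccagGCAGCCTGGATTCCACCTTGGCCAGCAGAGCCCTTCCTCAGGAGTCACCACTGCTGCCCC
Esrrb-201, same exon to the next: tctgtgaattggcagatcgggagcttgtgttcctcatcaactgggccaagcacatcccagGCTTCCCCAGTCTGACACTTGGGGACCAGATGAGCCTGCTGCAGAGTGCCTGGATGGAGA

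Taken as a share of the reads on the exons of Esrrb-205 alone and on the last exon, Esrrb-205 held 31.5% in oocytes (408 reads against 886, exact binomial 95% interval 29 to 34.1%). In mESCs it held 0 of 13222 reads, which allows a share of up to 0.0227%. By oocyte the share was 57.8% (193 of its reads against 141) in oocyte 10, 17.6% (64 against 299) in oocyte 17, 31.7% (77 against 166) in oocyte 28 and 25.5% (73 against 213) in oocyte 30. Oocyte 21 held 1 read against 67, a share of 1.47%, and was also the oocyte with the lowest Esrrb level (9.24 CPM, against 43.9 CPM or more in the other 4). All 5 oocytes thus held reads on exon 1 or exon 4 of Esrrb-205, from 1 to 193. Whether these reads came from the whole transcript was not tested. The library of oocyte 21 matched best the 3′ library of oocyte 20, and the other 4 matched that of their own number.

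**Figure D4:**
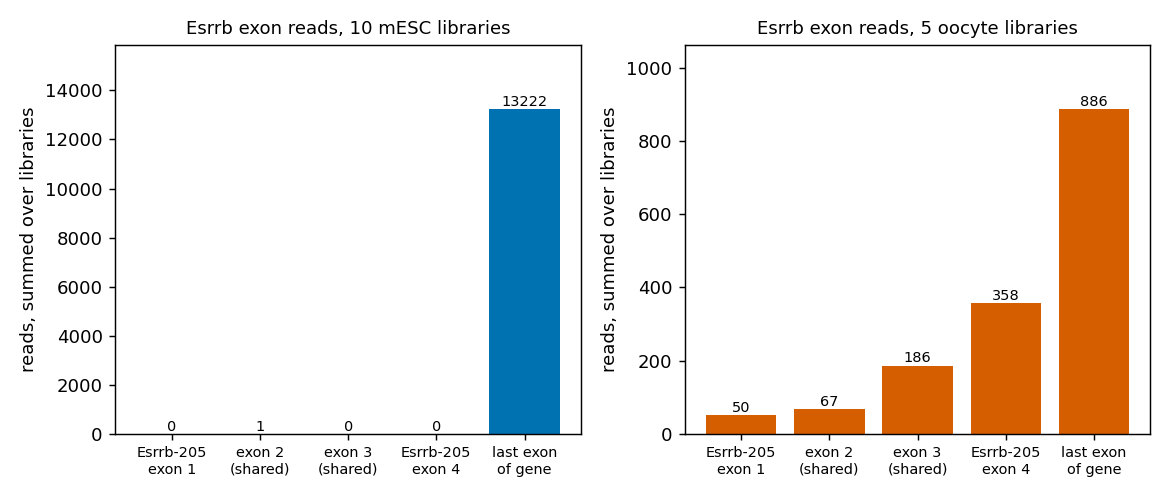
Bars give the reads on each exon of Esrrb (horizontal axis), summed over 10 mESC libraries (left) and 5 oocyte libraries (right), on separate linear axes of reads. In mESCs nearly all reads lie on the last exon (13222), whereas in oocytes the exons of Esrrb-205 hold 50, 67, 186 and 358 reads beside 886 on the last exon.

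Reads across exon–exon junctions of Esrrb were 132 over 5 junctions in all 5 oocytes (1 to 54 a library) and 11 over 1 junction in 2 of 10 mESCs. These libraries held 392753 to 541064 junction reads in oocytes and 535402 to 1466404 in mESCs, so that mESCs had the larger depth. Klf2 and Klf4 had junction reads in all 10 mESCs (686 over 1 and 766 over 2 junctions), while Nanog, Tfcp2l1 and Tbx3 had 0 in either kind of cell, as did Sox2, which has no intron. Cells amplified by this method are read mainly near 3′ ends, and a count of 0 at an exon far from one allows no statement about its use.

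In granulosa cells all 10 factors were more than 2-fold lower than in LCM mESCs, where 9.29% of 20215 genes were higher and 28.1% lower past 2-fold. The median difference was −7.17, against −0.004 over all genes. Sox2 was at 0 in all 57 cells by DRaqL-SC3-seq, which allows at most 0.0904 RPM over the summed reads, and also in all pools and bulk samples. A granulosa cell held 1.55 ± 1.26 of the factors when neighboring and 1.46 ± 1.27 when non-neighboring, and 10 and 7 cells held 0. The factors were thus at or near 0 in most granulosa cells, with a few cells high in 1 of them.

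Of 31 neighboring and 26 non-neighboring cells, Esrrb was detected in 10 and 9, with 28.3 and 1.07 RPM over the summed reads, and 1 neighboring cell carried 331 of the 543 reads. Prdm14 was detected in 10 and 9 cells with 27.5 and 1.36 RPM, and 1 cell carried 513 of 526 reads. Tfcp2l1 held 0.209 and 17.9 RPM, with 223 of 251 non-neighboring reads in 1 cell. Nanog held 4.02 and 0.0713 RPM, with 74 of 77 neighboring reads in 1 cell. These sums therefore rest on single cells. A separate table of the study holds 3 further cells, 1 neighboring and 2 non-neighboring, which the study set apart for profiles mixed with oocytes. They are not among the 57 and held 6 and 16 reads of Esrrb.

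In granulosa cells the mean of Esrrb was higher where the oocyte genes were high, as was that of Pou5f1 in neighboring cells. This was not limited to these factors, and the part of oocyte RNA in their levels was not tested. The 14 oocyte genes had a median of 2943 RPM (0 to 17299) in neighboring and 64.2 RPM (0 to 14355) in non-neighboring cells, and 13 and 3 cells reached 10% of the oocyte median. In the 13 neighboring cells at or over that level Esrrb had a mean of 2.12 (6 detected) and in the 18 under it 0.64 (4 detected). Pou5f1 had means of 1.33 (4 detected) and 0 (0 detected) in the same cells. In non-neighboring cells Esrrb had a mean of 2.26 in the 3 at or over it (3 detected) and 0.45 in the 23 under it (6 detected), whereas Pou5f1 was detected in 0 of the 3 and in 1 of the 23. Prdm14 had means of 2.01 (3 detected) and 0.55 (6 detected) in the same non-neighboring cells. In neighboring cells its order was the opposite (0.38 at or over that level and 1.06 under it). Tfcp2l1 had 2.83 and 0.44 in non-neighboring cells, the former from 1 cell. With 3 cells on 1 side, these non-neighboring means are rough. All 10 factors stayed lower than in mESCs past 2-fold in the cells under that level. Of the other naive genes 1 was higher than in LCM mESCs, namely Nr5a2 (8.58 against 6.18), a nuclear receptor gene that belongs to the granulosa markers, and 20 were lower, with Dppa5a (1.29 against 10.76), Fgf4 and Gdf3 foremost. Of the 17 primed genes detected, 3 were higher (Gata4, Gata6 and Dnmt3a) and 3 lower (T, Otx2 and Dnmt3b).

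Klf2 reached its highest granulosa levels after fresh dissociation. It ranged from 0 over 1.33 to 9.62 in 14 neighboring and from 0 over 0 to 8.37 in 21 non-neighboring dissociated cells, with 86.2 and 28.8 RPM over the summed reads. In the LCM cells of the same mouse the sums were 4.90 and 1.59 RPM over 35 cells each. In both preparations 4 to 7 cells a group held any read. The dissociated cells had 12748 to 353959 reads each. Dissociation, the cAMP analog and the amplification protocol differ together between these preparations and cannot be told apart.

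**Figure D5:**
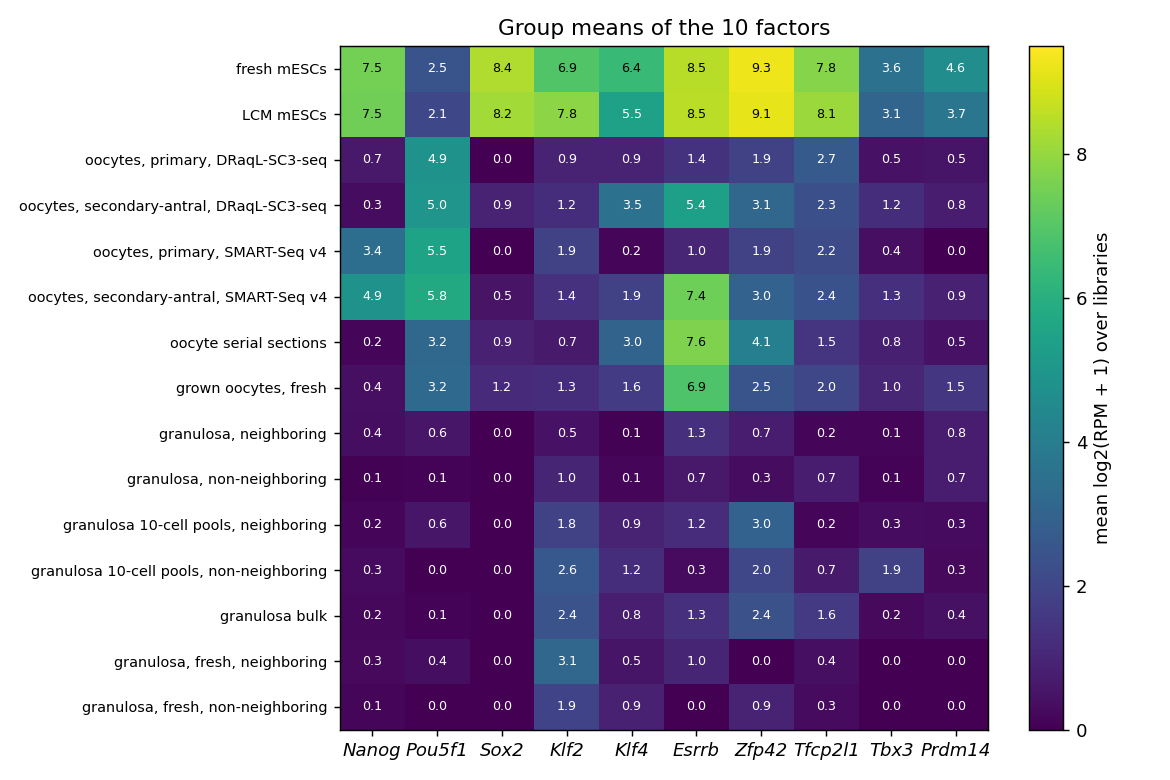
Colors and numbers give the mean log2(RPM + 1) of each factor (columns) in 15 of the 34 groups of 3′ libraries (rows). The highest mean of every factor but Pou5f1 is in mESCs, oocytes of later stages reach 5.37 to 7.65 for Esrrb, and the granulosa groups are low.

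Pools of 10 granulosa cells gave the replicates for a test between positions. Of the 10 factors only Klf2 and Zfp42 passed the filter on low counts, and neither was called, where 0.453% of the 9704 genes tested were. Zfp42 in the neighboring pools held 2.43, 0.677, 26.4, 99, 0.715, 5.87 and 9.58 RPM, and in the non-neighboring pools 0, 5.40, 6.16, 3.03, 2.29, 6.82 and 2.97 RPM. Pools 3 and 4 of the neighboring set were high and the others overlapped. Its log2 fold change was 2.47 ± 1.30 (SE, adjusted p = 0.998, edgeR quasi-likelihood test with Benjamini-Hochberg adjustment), and without replicate 4 it was 1.11. Klf2 held 24.0, 13.3, 0, 1.02, 0, 0 and 9.58 RPM in neighboring and 25.7, 0.600, 14.4, 0.242, 14.8, 4.98 and 3.28 RPM in non-neighboring pools. Its log2 fold change was −0.68 ± 1.36 (SE, adjusted p = 0.998, edgeR).

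Neither factor was under an unadjusted p of 0.05 by edgeR (0 of 2), whereas DESeq2, which tested 7 factors, had 3 under it (Esrrb, Tbx3 and Zfp42) and called 0. On simulated counts for this comparison, 3 of 95 genes changed 4-fold and 60 of 78 genes changed 64-fold were called, so that 4-fold changes were rarely called with these pools. The oocyte genes summed to 856 to 8865 RPM in neighboring and 2.34 to 151 RPM in non-neighboring pools, the theca and interstitial genes to 0 to 647 and 0 to 1085 RPM, the blood genes to at most 16.5 and 1700 RPM, and the endothelial genes to at most 8.92 and 9.85 RPM. Their part in the values of Zfp42 was not tested. In pools and bulk, fewer cells of a type and less RNA per cell cannot be told apart.

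In the 7 bulk samples against both sets of pools 0.101% of 11917 genes were called, and 0 of 2 factors tested. Zfp42 held 5.76, 2.07, 3.67, 3.39, 4.73, 3.63 and 7.58 RPM in bulk and lay within the range of the pools, with a log2 fold change of −1.07 ± 0.99 (SE, adjusted p = 1.00, edgeR). That of Klf2 was −0.32 ± 1.11 (SE, adjusted p = 1.00, edgeR). Without replicate 1 that of Klf2 was 0.41, and without replicate 4 that of Zfp42 was −0.38. Neither was under an unadjusted p of 0.05, and DESeq2 tested 9 factors, had 1 under it (Tfcp2l1) and called 0.

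Over all 34 groups of 3′ libraries the genes whose group means were most like the mean of the 10 factors were Lrrc34 (r = 0.96), Trh (0.96), Gm7325 (0.95), Gm13154 (0.94) and Slc30a2 (0.94). Trh, which encodes thyrotropin-releasing hormone, had a mean of 7.99 in fresh and 7.83 in LCM mESCs and at most 1.77 in any ovarian group. Gm13154 had 8.70 and 8.73 in mESCs but reached 5.26 in an ovarian group. With 2 of 34 groups being mESCs, these values of r mostly set mESCs against the ovary.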

How the data were processed

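The authors deposited raw read counts per gene for the 3′ libraries, made with fastp 0.20.0, cutadapt 1.16, HISAT2 2.1.0 on GRCm38 and HTSeq 0.10.0, where a gene's count also took in reads up to 10 kb from its annotated 3′ end. Exon and junction counts from featureCounts 2.0.1 were deposited for Y-shaped adapter libraries. Rows of the 10 members were taken by symbol. Levels were scaled to the sum of 22060 protein-coding genes in a library and given as log2(RPM + 1), and exon reads as CPM. The reads carry no molecular identifiers, so intervals and floors (3 counts) cover counting error only.

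The members, the lists of other naive genes, primed genes and markers, and the rules below were chosen with earlier results of these data known. Groups came from the sample labels. Single cells of a group are 1 sample, so differences between them are values with an SD over cells, past 2-fold or not, with no test. Pools and bulk were tested with edgeR 4.0.16 (quasi-likelihood, TMM, filterByExpr, threshold 0.05) over all genes in R 4.3.3, with DESeq2 1.42.0 as an alternative. Since the labels name no animal, p-values cover the spread between samples, which may be technical. The test was tested on simulated data of 9153 genes. Named genes are all members, the gene with the highest r to each member over fresh mESCs at a mean of at least 6, the 5 genes most like the members' mean over groups, annotated neighbors, and up to 3 genes of each list in each direction. The rule takes more neighbors than are printed. Annotation was GENCODE for GRCm38. 50-base words were compared over the last 1000 bases. Python 3.11.15 with numpy 2.4.6, pandas 2.3.3, scipy 1.17.1 and matplotlib 3.10.9 was used. Alternatives were other pseudocounts (0.1 and 10), scalings, summed or thinned counts (seed 20230918), read minimums, left-out cells or pools, and a replicate block.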

Additional observations from a re-analysis of the deposited data

Results flagged for a closer look

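Dixon's criterion at 95% was applied to each factor in each group of 4 to 10 samples with any read, 76 in all. Of these, 21 met it. A rate of about 1 in 20 by chance holds for normally distributed values, whereas many of these levels come from no read. A group with reads in a single sample meets the criterion whatever its level. The 21 therefore cannot be read as more than chance gives. Values are log2(RPM + 1).

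In the neighboring pools a single pool stood above the others for Nanog (0.73, next 0.31), Pou5f1 (3.11, next 0.81), Klf4 (5.05, next 1.07) and Tfcp2l1 (0.75, next 0.31). In the non-neighboring pools it did so for Esrrb (1.22, next 0.48) and Tfcp2l1 (4.4, next 0.31), and Zfp42 was at 0 in 1 pool (next 1.72). In bulk a single sample stood out for Pou5f1 (0.56, the others 0), Esrrb (3.19, next 1.61) and Tfcp2l1 (6.29, next 2.21).

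Among primary oocytes by DRaqL-SMART-Seq v4, Pou5f1 was at 0 in 1 oocyte (next 4.61), and 1 oocyte stood high for Zfp42 (5.78, next 1.85) and for Tbx3 (5.71, the others 0). By SMART-Seq v4, 1 primary oocyte held Klf4 (1.14) and 1 held Tbx3 (2.69) where the others were at 0. After formalin, Esrrb was at 0 in 1 primary oocyte (next 2.68) and Prdm14 was 1.78 in 1 (the others 0). Among secondary-antral oocytes after formalin, 1 oocyte stood out for Klf2 (4.31, next 1.07), 1 was low for Esrrb (3.99, next 6.13) and 1 held Prdm14 (0.76, the others 0). In the LCM oocytes of the single mouse, Esrrb was at 0 in 1 of 8 (next 5.74).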

How the results depend on the processing

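Of 95 alternative values for 14 results, 67 stayed and 28 moved by more than 1.5 times or more than the spread. The median difference of the factors between LCM and fresh mESCs turned from −0.14 to 0.15 with upper-quartile scaling, a move within the spread over cells. The count of factors called was 0 in pools and in bulk under all alternatives run. For pools, 44 genes were called, against 409 by DESeq2, and 5 to 34 when a pool number was left out. For bulk, 12 were called, against 359 by DESeq2 and 463 without the filter on low counts, and 0 to 40 when a number was left out. With the pool number as a replicate block, 3 genes were called in pools and 0 in bulk. Same-numbered pools had deviations that correlated at 0.00593 to 0.189, all above 0 but in 2 of 7 over 0.1, and in 3 of 7 the highest correlation was with the own number, a hint from the data. The labels do not say what a number marks, so that a pairing was not established. The cause of these changes was not tested.

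Between LCM and fresh mESCs, 0 factors were past 2-fold, but 2 with a pseudocount of 0.1 (Klf4 −1.04 and Prdm14 −1.21), 1 with upper-quartile scaling (Klf2 1.20), 1 with thinned libraries (Klf4 −1.14) and 1 without LCM cell SL01 (Klf4 −1.04), whose type in the study's source data differs from its label. The factors detected per cell dropped to 9.2 in fresh and 8.86 in LCM cells at a minimum of 5 reads, and to 9.09 and 8.92 in thinned libraries. Between oocyte stages, 7 factors were past 2-fold with a pseudocount of 0.1, 1 with a pseudocount of 10 and 5 with summed counts, against 3. With a pseudocount of 10, 9 factors stayed past 2-fold between oocytes and LCM mESCs and 8 between granulosa cells and LCM mESCs. Depth limits the low factors most, since 1 read in the shallowest mESC library already stands at 2.56 on the log2 scale.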
